A study of Mus musculus with 4 samples.

Results

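The BCL2 family genes that guard or end the life of a cell were followed in wild-type peritoneal B1a cells and wild-type splenic follicular B2 cells. The genes were a list of 10 named members, found by symbol among 20599 gene symbols: the guardians Mcl1, Bcl2 and Bcl2l1, the effectors Bax and Bak1, and the BH3-only genes Bcl2l11, Pmaip1, Bbc3, Bid and Bad. All 10 were in the files, and all 10 had enough counts to be tested, among 12078 tested genes. Expression was measured by RNA-Seq in 2 libraries of each cell type, from sorted cells of untreated wild-type C57BL/6 mice, and the question was which genes differ between the innate-like B1a and the conventional B2 lineage. The methods describe the B1a libraries as CD5+ IgM+ CD23- B cells washed from the peritoneal cavity, and the B2 libraries as IgD-high, IgM-low, CD21+ B cells of the spleen, with 2 littermate controls for each cell type. The labels give an age of 4 weeks for all 4 libraries, whereas the methods give the B2 mice a higher age. Cell type, organ and possibly age thus change together and cannot be told apart. The libraries held between 11032732 and 18588623 expected counts, that is, reads assigned to genes by RSEM.

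BCL2 family proteins control whether the outer membrane of mitochondria is opened, the step that commits a cell to apoptosis. The guardians MCL1, BCL2 and BCL-XL (the product of Bcl2l1) hold the effectors BAX and BAK in check, and BH3-only proteins such as BIM (Bcl2l11), NOXA (Pmaip1) and PUMA (Bbc3) bind the guardians or engage the effectors directly. Mature B cells depend on MCL1 and BCL2, and NOXA binds MCL1 with preference.

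The identity of the libraries was checked first. Of the 5 B1a markers, Spn, Itgam, Zbtb32 and Bhlhe41 were higher in B1a cells, and Cd5, the gene of the sorting marker, was at 15.9 and 22.4 CPM (counts scaled to a common library total, with TMM factors) against 5.46 and 2.25 without passing the test (adjusted p = 0.146, edgeR's quasi-likelihood test, Benjamini-Hochberg adjusted over all tested genes). Both follicular markers, Fcer2a and Cr2, were higher in B2 cells. The B1a libraries resembled each other less (Pearson's r of log2 CPM over tested genes, which are not independent replicates, 0.836) than the B2 libraries did (0.966), and the 4 pairs across cell types lay between 0.788 and 0.858. Summed macrophage markers were at 215 and 249 CPM in B1a cells and at 64.6 and 70.5 CPM in B2 cells. Of the 9 macrophage markers, 7 were tested and 1 was called by edgeR (Lyz2, at 127 and 136 CPM against 16.8 and 27.2 CPM). An unadjusted p under 0.05 was reached by 4, and DESeq2 called 3. For comparison, 2525 of all 12078 tested genes had such a p in edgeR's test, and DESeq2 called 1550. Adgre1 was at 27.7 and 39.0 CPM in B1a cells against 8.24 and 11.9 CPM, C1qa at 24.4 and 17.4 CPM against 4.60 and 6.06 CPM, Cd68 at 16.3 and 22.1 CPM against 8.59 and 3.35 CPM, and Cd14 at 1.70 and 2.79 CPM against 0.434 and 0 CPM, all without overlap between the groups. Csf1r was at 16.9 and 21.9 CPM against 21.2 and 18.3 CPM, and Timd4 and Gata6 of peritoneal macrophages were at or near 0. Erythroid markers summed to 78.8 and 504 CPM in B1a cells and to 36.1 and 80.8 CPM in B2 cells. Mast cell markers summed to 39.4 and 9.80 CPM against 0 and 0.941 CPM, and T cell markers to 127 and 80.8 CPM against 100.3 and 106 CPM. The part of these cells in the results below was not tested, and fewer cells of a type and less RNA per cell cannot be told apart in bulk samples.

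Among the 10 genes, Mcl1 and Pmaip1 were higher in B1a cells, and 0 of 10 were lower. Mcl1 is a guardian gene, and Pmaip1 a BH3-only gene whose product binds MCL1 with preference. The call was an adjusted p under 0.05 over all tested genes, and by this measure 5.74% of all tested genes differed (693 genes), 4.24% being higher in B1a cells (512 genes) and 1.5% higher in B2 cells (181 genes). The remaining 8 members did not pass the test. The TPM scale divides by transcript length and was used without TMM factors. On it, the split over all genes was 266 higher and 233 lower in B1a cells with a pseudocount of 1, and 196 and 163 with a pseudocount of 0.1. The B1a and B2 libraries did not overlap in CPM for 6 of the 10 members, against a background of 54.3% of tested genes. The median log2 fold change, B1a minus B2, was 0.27 over the members and -0.03 over all tested genes. With 2 libraries in each group, 0.33 is the smallest p that exact permutation can give, so each call rests on the spread shared across genes in edgeR's fit.

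**Figure D1:**
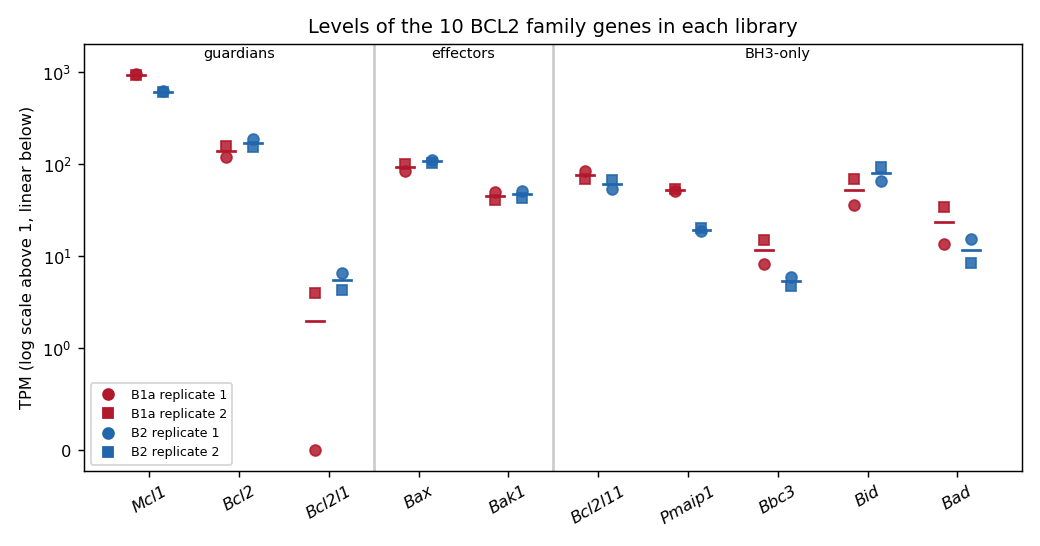
TPM of each member in each library (vertical axis, log scale above 1 and linear below), with circles for replicate 1, squares for replicate 2, red for B1a, blue for B2 and a bar for the mean of 2 libraries. Mcl1 stands above the other members in all 4 libraries, and Bcl2l1 is at 0 in B1a replicate 1. The libraries separate by cell type for Mcl1 and Pmaip1, and also for the uncalled Bcl2l1, Bcl2l11, Bax and Bbc3.

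The sequences before the start of transcription are shown for Mcl1, the called guardian and most abundant member, and for Bcl2, the next most abundant guardian, which was not called. They are the 250 bases upstream of the RefSeq start on GRCm38.p6 (the mm10 assembly), 5′ to 3′ on the strand of the gene, with motif matches in capitals: Mcl1 on the plus strand at chr3:95658471-95658720, Bcl2 on the minus strand at chr1:106714291-106714540. The Mcl1 window precedes 1 annotated start and lies inside the span of the whole gene in RefSeq, which begins upstream at 95656944, whereas the Bcl2 window borders its gene span.
Mcl1: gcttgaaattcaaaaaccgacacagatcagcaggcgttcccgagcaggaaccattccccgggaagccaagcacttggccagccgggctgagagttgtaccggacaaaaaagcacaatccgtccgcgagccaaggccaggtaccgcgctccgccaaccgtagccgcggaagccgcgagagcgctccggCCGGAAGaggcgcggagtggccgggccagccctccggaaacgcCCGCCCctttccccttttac
Bcl2: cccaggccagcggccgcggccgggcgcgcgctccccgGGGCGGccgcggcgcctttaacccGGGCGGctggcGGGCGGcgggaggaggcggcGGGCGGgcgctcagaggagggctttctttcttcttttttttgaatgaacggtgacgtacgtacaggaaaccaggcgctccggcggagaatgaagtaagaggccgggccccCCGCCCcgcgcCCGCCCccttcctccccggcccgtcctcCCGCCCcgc
The Mcl1 window had a GC content of 64.4%, a match to the ETS motif (CCGGAAG) at -63 to -57 from the start and a match to the GC box (GGGCGG, here read on the other strand) at -20 to -15. The Bcl2 window had a GC content of 74.8% and held 7 GC box matches and none of the other motifs. Across the members, 9 of 10 were found in the RefSeq table of start windows, with 15 windows in all; Pmaip1 was not. Each motif was searched on both strands of the windows. The GC box was in 10 of the 15 windows and in 32.7% of all 32851 windows of this length. The ETS motif was in 2 (Mcl1 and Bcl2l11) and in 6.91% of all, the FOXO motif (GTAAACA) in 2 (Bcl2l11 and Bbc3) and in 3.17%, and the E-box (CACGTG) in 2 (Bax and Bbc3) and in 6.02%. A STAT motif (TTCNNNGAA, 7.02% of all windows) and a cAMP response element (TGACGTCA, 1.55%) were in 0 of 15. These are matches of letters and not binding sites.

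Of the guardians, Mcl1 (chromosome 3, 95656944 to 95663179) was the most abundant and the only called one. Its product is a short-lived protein that binds BAK and BH3-only proteins. Mcl1 was at 1383 and 1408 CPM in the B1a libraries and at 778 and 762 CPM in the B2 libraries. Both B1a libraries thus lay above both B2 libraries, and the gap was far larger than the distance within either pair. The means were 1395 ± 17.8 and 770 ± 11.04 CPM (SD, n = 2 each), a fold of 1.81 (95% interval 1.54 to 2.14), and the log2 fold change was 0.86 ± 0.10 (SE, edgeR's quasi-likelihood test, adjusted p = 0.00771). Mcl1 stayed called with each library left out in turn, where its log2 fold change ran from 0.84 to 0.87. Those fits leave 1 library in a group, assumed to vary like the other group. Mcl1 was also called in 9 of 10 other ways of processing. In the tenth, limma on log2(TPM + 0.1), its adjusted p was 0.0501.

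Bcl2 (chromosome 1, 106538176 to 106714290), the founding survival gene of the family, was at 343 and 366 CPM in B1a cells and at 305 and 286 CPM in B2 cells. The libraries did not overlap, but the log2 fold change of 0.26 (95% interval -0.03 to 0.56) did not pass the test (edgeR, adjusted p = 0.297). Its direction depended on the scale. In TPM, Bcl2 was at 118 and 155 in B1a cells and at 187 and 152 in B2 cells, groups that overlap, and limma on log2(TPM + 1) gave -0.32, where the median of all genes was -0.30. On that same scale the difference of Mcl1 was 0.62. The TPM scale takes up the length of the transcripts, which for Bcl2 differed between libraries as described below.

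Bcl2l1 (chromosome 2, 152758732 to 152833803) encodes BCL-XL, and had low counts. It was at 0 counts in B1a replicate 1 and at 3.06 CPM in B1a replicate 2, against 5.20 and 3.87 CPM in B2 cells. A floor of 3 counts corresponds to between 0.161 and 0.272 CPM, for counting error only, so Bcl2l1 was above it in 3 of 4 libraries. The 95% interval of its log2 fold change ran from -6.45 to 3.32 (edgeR, adjusted p = 0.744), and its fitted fold depends on how a count of 0 is handled. Without B1a replicate 2 it was called lower in B1a cells (edgeR, adjusted p = 0.000114), in a fit that called 6143 genes.

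Neither effector passed the test. Bax (chromosome 7, 45461695 to 45466903) was at 28.5 and 35.3 CPM in B1a cells and at 32.4 and 30.6 CPM in B2 cells. Bak1 (chromosome 17, 27019812 to 27028627), whose product sits in the mitochondrial membrane, was at 41.6 and 34.4 CPM against 36.4 and 30.9 CPM. For both genes the groups overlapped. The log2 fold change was 0.02 for Bax (95% interval -0.73 to 0.77, edgeR, adjusted p = 0.979) and 0.17 for Bak1 (95% interval -0.54 to 0.88, adjusted p = 0.815). On the TPM scale both signs turned, to -0.23 and -0.068 with a pseudocount of 1. The median of all genes was -0.30 on that scale, so both lay above it. Bax exceeded Bak1 in TPM in every library, by a ratio between 1.66 and 2.49.

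Of the BH3-only genes, Pmaip1 (chromosome 18) differed most. It encodes NOXA, which binds MCL1 and marks it for degradation. Pmaip1 was at 57.4 and 61.1 CPM in B1a cells and at 17.6 and 19.2 CPM in B2 cells, with no overlap. The means were 59.2 ± 2.61 and 18.4 ± 1.11 CPM (SD, n = 2 each), a fold of 3.22 (95% interval 2.04 to 5.08), and the log2 fold change was 1.69 ± 0.27 (SE, edgeR's quasi-likelihood test, adjusted p = 0.0234). The call was less stable than that of Mcl1. It was lost without B2 replicate 1 (edgeR, adjusted p = 0.17) and without B2 replicate 2 (adjusted p = 0.117), and on the TPM scale (limma, adjusted p = 0.0553 with a pseudocount of 1 and 0.0619 with 0.1), while the log2 fold change stayed between 1.40 and 1.74 in all of these.

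Bcl2l11 (chromosome 2, 128126038 to 128162547) encodes BIM, a main killer of B cells that are starved of survival signals. It was the most abundant BH3-only gene in CPM, at 104 and 111 in B1a cells and at 78.3 and 99.8 in B2 cells. The libraries did not overlap, but the distance between the B2 libraries exceeded that between the groups, and the log2 fold change of 0.27 did not pass (95% interval -0.21 to 0.76, edgeR, adjusted p = 0.516).

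Bbc3 (chromosome 7, 16308398 to 16318334), which encodes the p53 target PUMA, was at 6.81 and 12.6 CPM against 4.16 and 3.35 CPM. Both B1a libraries were higher, yet the B1a pair was spread widely and the log2 fold change of 1.37 had a 95% interval from -0.75 to 3.49 (edgeR, adjusted p = 0.452). Bad (chromosome 19, 6941861 to 6951905), whose product is held inactive by growth factor signals, overlapped between the groups, at 5.11 and 14.6 CPM against 7.72 and 4.29 CPM (adjusted p = 0.734). Without B1a replicate 1, in a fit that called 3953 genes, Bbc3 and Bad were called higher in B1a cells (edgeR, adjusted p = 0.00891 and 0.026).

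Bid (chromosome 6, 120893119 to 120917062) links death receptors to mitochondria, since caspase-8 cleaves its product. It was at 28.3 and 55.7 CPM in B1a cells and at 43.5 and 62.7 CPM in B2 cells, groups that overlap, with a log2 fold change of -0.34 (95% interval -1.31 to 0.63, edgeR, adjusted p = 0.713). Its values were summed over 2 near-identical entries, of which 1 was at 0 in every library. The log2 fold change of Bid ran from -0.91 to 0.061 with a library left out.

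**Figure D2:**
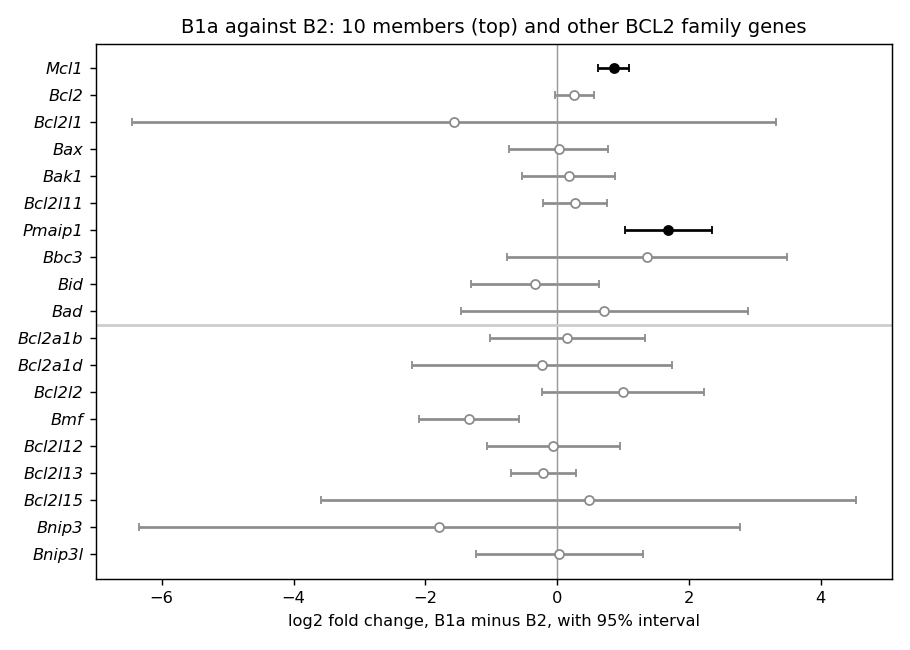
Log2 fold change, B1a minus B2, with its 95% interval from edgeR's fit, for the 10 members (above the grey line) and the 9 tested genes among 16 other BCL2 family genes (below it). Filled points mark the called genes Mcl1 and Pmaip1, and the intervals of Bcl2l1, Bcl2l15 and Bnip3 are the widest.

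Levels of different members were compared in TPM, as a description. In B1a cells the order by mean was Mcl1 (932 ± 4.64 TPM, SD, n = 2), Bcl2 (136 ± 26.2), Bax, Bcl2l11, Bid, Pmaip1, Bak1, Bad, Bbc3 and Bcl2l1 (1.99 ± 2.81). Neighbours overlapped between Bax and Bcl2l11, Bcl2l11 and Bid, Bid and Pmaip1, and Bad and Bbc3. In B2 cells the order was Mcl1 (608 ± 15.5 TPM), Bcl2 (170 ± 24.4), Bax, Bid, Bcl2l11, Bak1, Pmaip1, Bad, Bcl2l1 and Bbc3 (5.32 ± 0.877), and neighbours overlapped between Bid and Bcl2l11 and between Bcl2l1 and Bbc3. Pmaip1 was thus above Bak1 in both B1a libraries and below it in both B2 libraries.

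The balance between members was also read within each library. Mcl1 made up 67.8% and 63.3% of the summed TPM of the 10 members in B1a cells and 54.7% in each B2 library. The ratio of Mcl1 to Bcl2 was 7.93 and 5.99 in B1a cells and 3.31 and 3.91 in B2 cells. Both measures separated the cell types without overlap, but both contain Mcl1, the called gene, so this is not a separate result. The ratio also takes up the weighted length of the Bcl2 transcripts, which differed between libraries as described below. Pmaip1 came to 5.49% and 5.74% of Mcl1 in B1a cells and to 2.99% and 3.33% in B2 cells, and to 26.6% and 22.3% of the summed BH3-only genes against 11.7% and 10.4%. In contrast, the sum of the BH3-only genes relative to the guardians overlapped between the groups, at 18.3% and 21.9% in B1a cells and 19.4% and 25.4% in B2 cells. Ranked among all genes by TPM, Mcl1 stood at 142 and 144 in B1a cells and at 185 and 195 in B2 cells, whereas Bcl2 stood at 1421 and 969 against 872 and 1159.

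RSEM reports a transcript length weighted by the abundance of each gene's transcripts, so that a shift in this length reflects a shift between transcripts. Bcl2 had a weighted length of 6788 and 5384 bases in B1a cells and of 4506 and 5091 bases in B2 cells. Set against the lengths of the long and the short Bcl2 transcript in GENCODE M21 (7191 and 2841 bases), which may differ from the RefSeq models of the files, this corresponds to a share of the long transcript of 90.7% and 58.5% in B1a cells and of 38.3% and 51.7% in B2 cells. For Bcl2l11 the length was 2950 and 3777 bases in B1a cells and 4059 and 4088 bases in B2 cells, and for Bad 941 and 1051 bases against 1458 bases in both B2 libraries. Each of these 3 genes, the members with several transcripts and at least 50 counts in every library, had no overlap between the groups, in a background of 36.3% of 2630 such entries. Bcl2 was longer and Bcl2l11 and Bad were shorter in B1a cells, and among all such entries without overlap 345 were longer and 610 shorter. The B1a libraries differed widely for Bcl2 and Bcl2l11, whereas the B2 libraries differed for Bcl2 but little for Bcl2l11. No test was made.

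**Figure D3:**
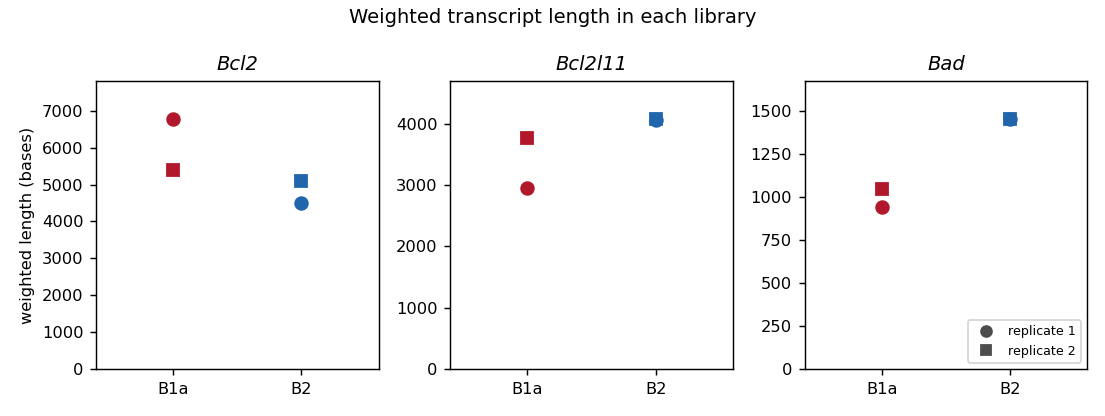
Weighted transcript length in bases (vertical axes start at 0) of Bcl2, Bcl2l11 and Bad in each library, with circles for replicate 1 and squares for replicate 2. The B1a libraries lie above the B2 libraries for Bcl2 and below them for Bcl2l11 and Bad.

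Of 16 other BCL2 family genes, 9 had enough counts to be tested and 0 were called at an adjusted p under 0.05, with a median log2 fold change of -0.06. The nearest to a call was Bmf, which encodes a BH3-only protein that is tied to the cytoskeleton. It was at 31.2 and 27.4 CPM in B1a cells and at 91.3 and 56.9 CPM in B2 cells, without overlap, with a log2 fold change of -1.34 (95% interval -2.10 to -0.57, edgeR, unadjusted p = 0.00524, adjusted p = 0.0712). Bmf was called in 4 of 10 other ways of processing, with DESeq2 at an adjusted p of 0.00691. Its log2 fold change ran from -1.64 to -0.96 with a library left out. Bmf was the only one of the 9 with an unadjusted p under 0.05, and the only one that DESeq2 called. Among all 12078 tested genes, 2525 had such a p in edgeR's test, and DESeq2 called 1550.

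The guardian Bcl2l2, which encodes BCL-W, was at 47.6 and 19.5 CPM against 16.8 and 16.7 CPM (edgeR, adjusted p = 0.339), the first B1a library standing above the other 3. Leaving out a library moved the log2 fold change of Bcl2l2 between 0.216 (without B1a replicate 1) and 1.503 (without B1a replicate 2). The fit without B1a replicate 2 keeps only the higher B1a library in its group. The Bcl2a1 genes, guardians induced by NF-kappaB, are near-identical copies between which RSEM divides reads, so their single values are uncertain. Summed, they were at 25.4 and 24.8 CPM in B1a cells and at 21.9 and 29.6 CPM in B2 cells, groups that overlap. Bnip3 and Bnip3l, which act in the removal of mitochondria, were not called. Bnip3 was at 0 and 5.04 CPM against 9.46 and 8.0 CPM, and Bnip3l at 36.4 and 114 CPM against 83.4 and 64.0 CPM. Leaving out a library moved the log2 fold change of Bnip3l between -1.02 and 0.63. For Bnip3 it moved between -9.93 and -0.79, a range that depends on how a count of 0 is handled. Bcl2l12, Bcl2l13 and Bcl2l15 were not called either, with log2 fold changes of -0.06, -0.21 and 0.48. Bcl2a1a, Bcl2a1c, Bcl2l10, Bok, Bik, Hrk and Bcl2l14 were untested, and none of them exceeded 2.70 CPM in any library.

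The wider apoptosis pathway was described from lists around the members. Their counts of called genes stand beside 4.24% of all tested genes called higher and 1.5% called lower in B1a cells. Of 23 regulators of the MCL1, BIM and BAD proteins, all tested, 3 were higher in B1a cells and 0 were lower, with a median log2 fold change of -0.02. Pim1, a kinase that phosphorylates BAD, was at 450 and 425 CPM in B1a cells and at 38.4 and 33.9 CPM in B2 cells, a fold of 12.1 (95% interval 9.40 to 15.6, edgeR, adjusted p = 0.00054). Fbxw7, which targets MCL1 for degradation, was at 204 and 217 CPM against 80.1 and 83.7 CPM (adjusted p = 0.00701). Rps6ka1, another BAD kinase, was at 181 and 184 CPM against 83.4 and 86.4 CPM (adjusted p = 0.0135), and lost its call without B2 replicate 1 (0.0585). None of the 3 genes overlapped between the groups, against a background of 54.3% of tested genes without overlap. Huwe1, another ligase of MCL1, was at 1315 and 1268 CPM against 1057 and 1116 CPM (edgeR, adjusted p = 0.226). The adaptor Ywhaz, which holds phosphorylated BAD, was at 665 and 844 CPM against 621 and 684 CPM (edgeR, adjusted p = 0.504). Leaving out a library moved the log2 fold change between 0.21 and 0.28 for Huwe1 and between 0.027 and 0.37 for Ywhaz.

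A list of transcription factors of BH3-only genes also held Mdm2, which encodes a regulator of p53. Of its 16 tested genes (17 listed), 1 was higher and 1 lower in B1a cells, with a median of -0.10. Myc was at 363 and 456 CPM in B1a cells and at 87.0 and 109 CPM in B2 cells, a fold of 4.17 (95% interval 3.04 to 5.74, edgeR, adjusted p = 0.0042). Foxo1, which drives Bcl2l11 in starved lymphocytes, was at 248 and 220 CPM against 478 and 484 CPM, a fold of 0.487 (95% interval 0.394 to 0.602, adjusted p = 0.00907). Both kept their calls in all 10 other ways of processing. With a library left out, the log2 fold change ran from 1.88 to 2.23 for Myc and from -1.13 to -0.95 for Foxo1. Nfkb1 was at 469 and 409 CPM against 332 and 327 CPM (edgeR, adjusted p = 0.137). Its log2 fold change ran from 0.31 to 0.51 with a library left out. Rel was at 253 and 201 CPM against 228 and 251 CPM (edgeR, adjusted p = 0.855).

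Of 18 apoptosome and caspase genes, 0 were higher and 1 was lower in B1a cells, with a median of -0.13. This was Parp1, a DNA repair enzyme and caspase substrate, at 273 and 277 CPM against 482 and 412 CPM (log2 fold change -0.70, edgeR, adjusted p = 0.0376, and 0.347 without B2 replicate 1). The caspase inhibitors Xiap and Birc3 were not called in edgeR's test (adjusted p = 0.345 and 0.647). Xiap was at 139 CPM in each B1a library against 153 and 202 CPM. Birc3 was at 364 and 307 CPM against 307 and 303 CPM. The log2 fold change of Xiap ran from -0.54 to -0.15 with a library left out.

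Of 10 tested death receptor genes, 0 were called by edgeR, with a median of 0.00, 4 had an unadjusted p under 0.05 (Cflar, Tnfrsf10b, Fas and Tradd), and DESeq2 called 2 (Fas and Cflar). Cflar, which blocks caspase-8, was at 194 and 144 CPM against 273 and 246 CPM (edgeR, unadjusted p = 0.0149, adjusted p = 0.13), and the receptor gene Tnfrsf10b at 256 and 245 CPM against 321 and 325 CPM (unadjusted p = 0.021, adjusted p = 0.155). Fas, a death receptor gene, was at 0 counts in both B1a libraries and at 3.21 and 2.88 CPM in B2 cells. Cflar passed in 3 of 10 other ways of processing. With a library left out, the log2 fold change ran from -0.86 to -0.42 for Cflar and from -0.40 to -0.34 for Tnfrsf10b. Of 15 mitochondrial outer membrane partners, 0 were called by edgeR, with a median of 0.10, and the 4 with an unadjusted p under 0.05 were also those that DESeq2 called (Itpr3, Tmbim6, Hk1 and Hk2). The calcium channel genes Itpr1 (552 and 580 CPM against 531 and 527 CPM, edgeR, adjusted p = 0.68) and Itpr3 (552 and 388 CPM against 722 and 633 CPM, 0.191) were the most counted of them. Itpr3 passed in 3 of 10 other ways of processing, and its log2 fold change ran from -0.80 to -0.30 with a library left out.

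**Figure D4:**
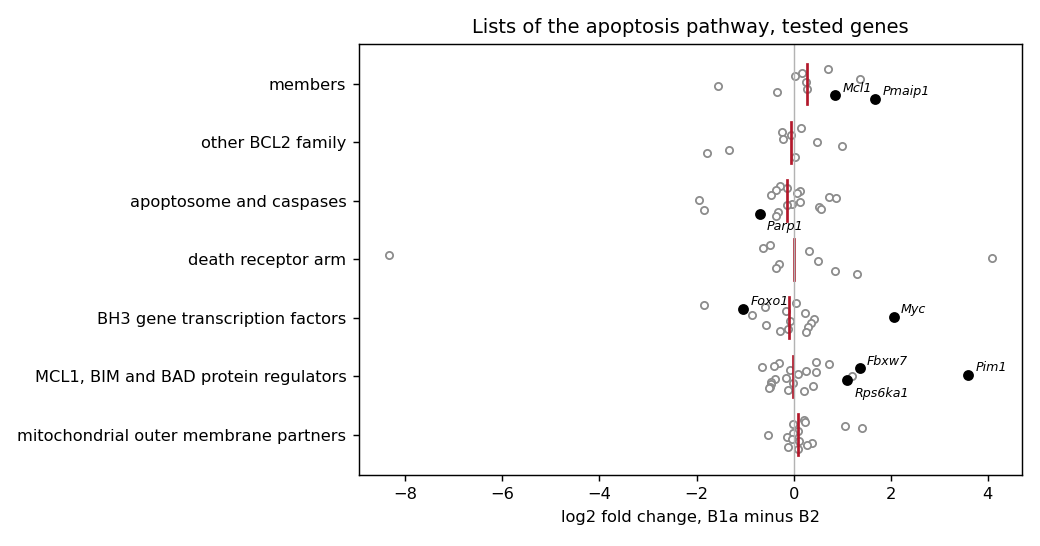
Log2 fold change, B1a minus B2, of every tested gene of the members and of 6 related lists, with filled, named points for called genes and a bar for the median of each list. The medians lie close to 0, and the 6 called genes outside the members come from 3 of the 6 related lists. The point at -8.34 is Fas, at 0 counts in both B1a libraries, whose fitted value depends on how a count of 0 is handled.

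**Figure D5:**
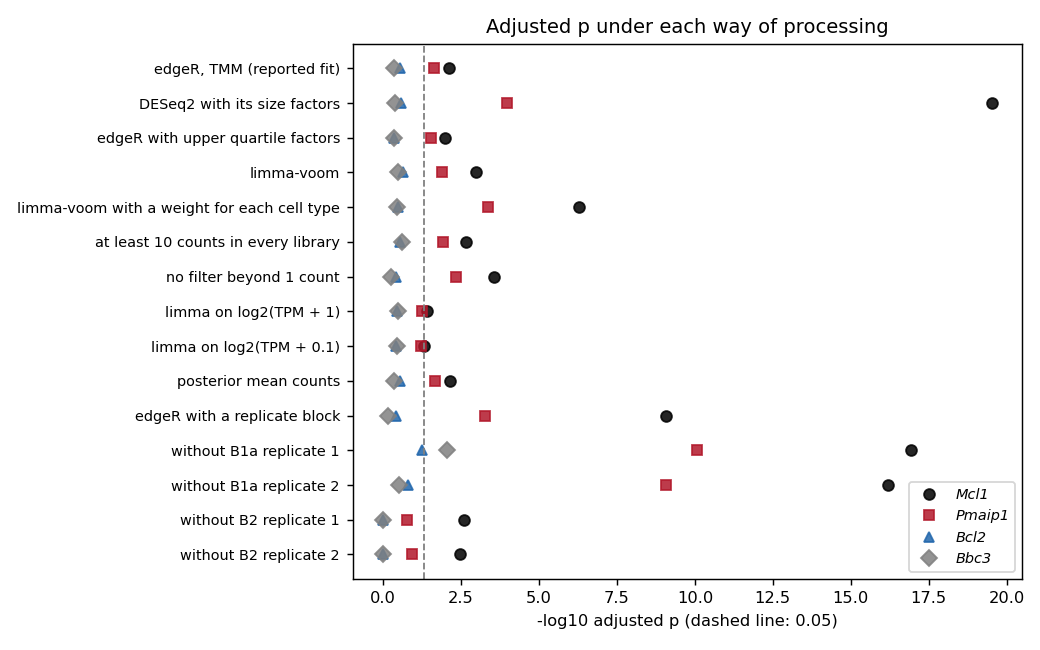
Adjusted p (horizontal axis, -log10, with a dashed line at 0.05) of Mcl1, Pmaip1, Bcl2 and Bbc3 in the reported fit, in 10 other ways of processing and with each library left out. Mcl1 lies past the line except with log2(TPM + 0.1), where it is at 0.0501, Pmaip1 falls short on the TPM scale and without either B2 library, and Bcl2 never passes.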

How the data were processed

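RNA-Seq of 4 wild-type libraries was used, and Dnmt3a-deficient cells were not analysed here. Reads had been aligned to mm10 by the authors, and RefSeq genes quantified with RSEM (1.2.29 in the submitters' processing notes, another version in the methods), after demultiplexing with bcl2fastq. The labels name a ribosomal depletion kit and the methods a stranded kit. An expected count per gene entry (21970 entries), not normalized, was deposited by the authors, with ambiguous reads divided between entries. They also deposited TPM and, in other columns, weighted lengths in bases and a posterior standard deviation in reads. FPKM was not used. Leading numbers were removed from entry names and the counts of equal symbols summed (951 symbols had several entries) and rounded. Genes passing filterByExpr were TMM-scaled and tested with edgeR 4.0.16 (R 4.3.3, quasi-likelihood test, Benjamini-Hochberg adjustment, threshold 0.05, no block). Intervals came from the F statistic. The study's EBSeq was not run. The members and lists were chosen with earlier results of these data known. All members and the other BCL2 family genes were named, and from each further list the called genes (at most 4) and the 2 uncalled genes with the highest mean CPM; macrophage markers were named as markers of another cell type, and Fas, Tradd, Tmbim6, Hk1 and Hk2 after their values were seen. P-values measure the spread between 2 libraries a group, from separate mice by the methods. Alternatives were DESeq2 1.42.0, upper quartile scaling, limma-voom (limma 3.58.1) with and without a weight for each cell type, filters of at least 10 counts in every library or 1 in any, limma on log2(TPM + 1) and log2(TPM + 0.1) for a mean TPM of at least 1, posterior mean counts, a replicate block, a minimum absolute log2 fold change of 1, and each library left out. Scripts were tested on simulated data.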

Additional observations from a re-analysis of the deposited data

How the results depend on the processing

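The count of called genes, 693, moved to 1550 with DESeq2, 1415 with limma-voom and weights, 1141 without a filter, 359 with log2(TPM + 0.1) and between 539 and 6143 with a library left out (3953 without B1a replicate 1, 6143 without B1a replicate 2). The count of called members, 2, moved to 1 with log2(TPM + 1), 0 with log2(TPM + 0.1) (unadjusted p in limma 0.00152 for Mcl1 and 0.0025 for Pmaip1), 1 with a minimum absolute log2 fold change of 1, and between 1 and 4 with a library left out. The cause was not tested. Leaving out a library leaves 1 in its group, assumed to vary like the other group. The labels and methods do not say that equal replicate numbers mark a shared mouse, and this was not settled by the data (correlation of same-numbered deviations -0.0347, 2 pairs). With them as a replicate block, edgeR called 1481 genes, 889 higher and 592 lower in B1a cells, and Mcl1 and Pmaip1 among the members.

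Of the values for members and named genes under other settings, 413 kept direction and call, 31 gained a call, 7 lost it and 36 reversed, none of a gene called in the reported fit. On the TPM scales (medians of all genes -0.30 and -0.32) the log2 fold changes were -0.32 and -0.32 for Bcl2, -0.23 for Bax, -0.068 and -0.070 for Bak1, -0.11 for Bcl2a1b and Birc3, -0.41 and -0.42 for Bnip3l, -0.033 for Ywhaz and -0.14 for Itpr1. With upper quartile scaling, Bax was at -0.048 and Bnip3l at -0.038. With limma-voom, its weights and the replicate block, Bcl2l15 was at -0.57, -0.57 and -0.49, and Bnip3l at -0.14, -0.15 and -0.17. With a library left out, the range was -0.14 to 0.17 for Bax, -0.22 to 1.29 for Bad, -0.91 to 0.061 for Bid, -0.19 to 0.43 for Bcl2a1b, -1.06 to 0.29 for Bcl2a1d, -0.43 to 0.23 for Bcl2l12, -2.60 to 1.38 for Bcl2l15, -1.02 to 0.63 for Bnip3l and -0.25 to 0.075 for Rel. The 95% intervals of all 8 uncalled members include both directions. Bcl2l1 was at 0 counts in B1a replicate 1, a library of 11578785 expected counts, and at 34 in B1a replicate 2, of 11558489. The cause was not tested.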
